A study of Gossypium barbadense with 48 samples.

Results

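Fibers of the American cotton PimaS-7 were compared at 35 and 30 days post anthesis (DPA), the last step of a developmental series. The comparison uses 6 of the 48 libraries of the study, 3 at 35 DPA and 3 at 30 DPA, taken by cultivar and stage. It is read as the later over the earlier stage, and was chosen with earlier results of these data known. The study sampled PimaS-7 and the Chinese cultivar 5917, both Gossypium barbadense and the parents of a mapping population for fiber strength, at 8 stages from 0 DPA (ovules) to 35 DPA, with 3 libraries per material and stage. No treatment is given in the labels of any library, and both stages compared here are fiber of the same cultivar, harvested from the plants at the day stated. The methods of the study mention 2 plants of the parent varieties and 3 biological replicates, and do not say whether the replicates were separate plants, so the p-values below measure the spread between libraries, which may be technical.

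A cotton fiber is a single cell that grows out of the seed epidermis. It elongates first, then lays down a thick secondary wall of nearly pure cellulose, and finally matures and dries. Cellulose synthase complexes move in the plasma membrane along tracks of cortical microtubules, polymers of alpha and beta tubulin. Sucrose synthase supplies the complexes with UDP-glucose from sucrose, and actin filaments and small GTPases carry the vesicles that renew the membrane.

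At 35 DPA the fibers held far less RNA of the beta tubulins TUBB1 and TUBB5, of the subtilisin-like protease SBT4.14, of the germin-like protein GLP10 and of ornithine decarboxylase (ODC) than at 30 DPA. They held more RNA of sucrose synthase SUS2, of cinnamoyl-CoA reductase CCR1 and of the chaperone regulator BAG6. CPM, read counts scaled to library size with edgeR's TMM factors, are given per library, always in the order replicate 1, 2 and 3. A gene was called higher or lower when edgeR's quasi-likelihood test gave a Benjamini-Hochberg adjusted p of at most 0.05 over all genes tested and the log2 fold change, 35 over 30 DPA, was at least 1 in size. Of 47809 genes tested, 747 (1.56%) were higher and 1142 (2.39%) lower at 35 DPA, 3.95% in all. The median change was 1.38 on the log2 scale among the higher genes and -2.26 among the lower ones, against 0.06 over all genes tested. These are levels of bulk RNA, in which fewer fiber cells of a kind and less RNA per cell cannot be told apart.

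The replicates of both stages lay far apart. Total counts were alike, from 30675630 to 36764131 reads per library, and 37910 to 41719 genes had an FPKM (fragments scaled to gene length and library size) above 0.5, the lowest number in replicate 2 of 35 DPA. Across genes on log2(FPKM + 1), libraries of one stage correlated with r of 0.926 to 0.968 at 30 DPA and 0.933 to 0.97 at 35 DPA, and libraries of different stages with 0.874 to 0.938. Genes are not independent replicates, so these values carry no test. The lowest values within a stage therefore fell inside the range between stages. The biological coefficient of variation of the 6 libraries was 0.427, the highest of the 14 steps from one stage to the next in both materials, of which the lowest had 0.251. On the first principal component, with 49.7% of the variance, the 30 DPA libraries scored 97.2, 63.8 and 25.4 and the 35 DPA libraries -65.4, -24.2 and -96.7, so the stages were apart in every library. On the second component, with 23.4%, replicate 2 of 35 DPA scored 87.3 and the other 5 libraries from -62.1 to 28.7.

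**Figure D1:**
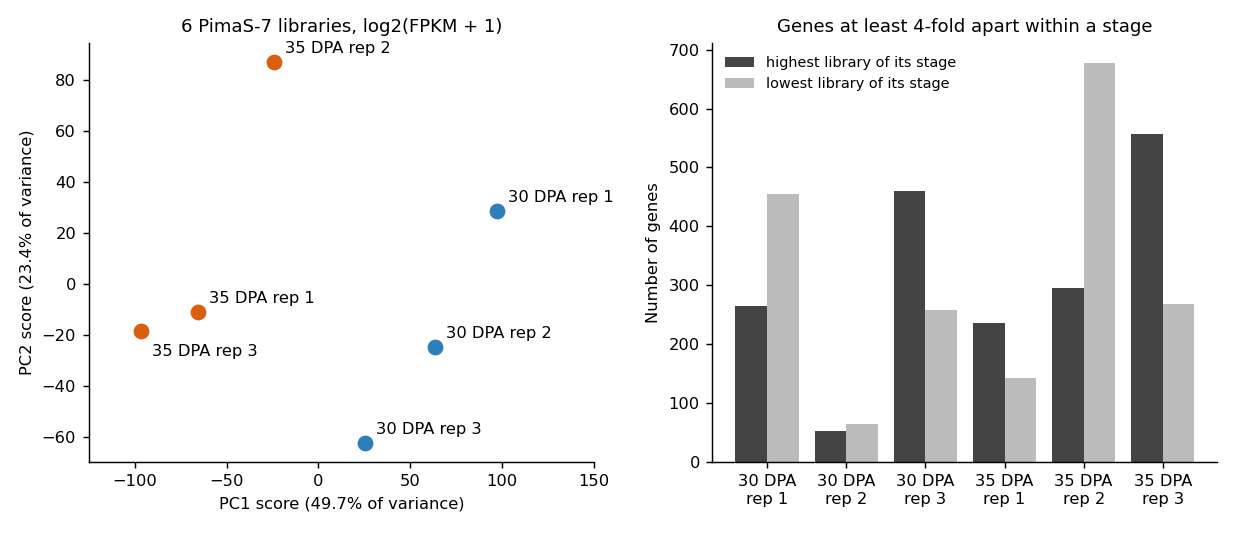
The left panel plots the 6 PimaS-7 libraries on the first 2 principal components of log2(FPKM + 1), with the 3 libraries of 30 DPA at positive and the 3 of 35 DPA at negative PC1 scores. The right panel counts, among genes at least 4-fold apart within a stage, how often each library was the highest or the lowest of its stage: replicate 2 of 35 DPA was the lowest for 678 of 1089 genes, and replicate 2 of 30 DPA for 65 of 777.

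Of 24407 genes with a mean of at least 5 CPM at both stages, the highest library of a stage was at a median of 1.33 times the lowest at 30 DPA and 1.44 times at 35 DPA. At least 4-fold apart were 777 genes at 30 DPA and 1089 at 35 DPA. At 30 DPA replicate 1 was the lowest library for 455 of the 777 and replicate 3 the highest for 460. At 35 DPA replicate 2 was the lowest for 678 of the 1089 and replicate 3 the highest for 557. Over all 24407 genes the order was another: replicate 1 of 30 DPA was the highest library of its stage for 11635 genes and the lowest for 8530, and replicate 2 of 35 DPA the highest for 11894 and the lowest for 8408. Among list members, those at least 4-fold apart include several transcription factors, chosen here after their values were seen. ERF060, an ethylene-responsive factor, had 0.986, 4.91 and 10.4 CPM at 30 DPA and 20.9, 0.627 and 27.6 CPM at 35 DPA. MYB61 (Gbar_D08G014210), a regulator of secondary walls in Arabidopsis, had 4.9, 21.9 and 32.8 CPM and then 37.1, 2.9 and 27.3 CPM. RAP2-3, another ethylene-responsive factor, had 15.3, 17 and 24.6 CPM and then 20.2, 2.09 and 25.9 CPM. In all 3 genes replicate 2 was the lowest library of 35 DPA, and none of them was called, with adjusted p from 0.47 to 0.93 by edgeR.

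A single library could also carry a large mean difference. A probable polygalacturonase, a pectin-cleaving enzyme (Gbar_D08G012870), had 13.6, 10.5 and 32.4 CPM at 30 DPA and 467, 28.1 and 16.1 CPM at 35 DPA. Its log2 fold change of 3.18 rested on replicate 1 of 35 DPA, fell to 0.24 when that library was left out, and was not called (adjusted p = 0.19 by edgeR). The caffeic acid O-methyltransferase gene Gbar_D08G024220, of the lignin pathway, had 76.6, 35 and 0.137 CPM at 30 DPA against 0.834, 0.717 and 2.71 CPM at 35 DPA. Its replicate 3 of 30 DPA was below all libraries of 35 DPA, and it was not called (adjusted p = 0.14 by edgeR).

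Each of the 1889 called genes had groups that did not overlap: its 3 libraries of one stage all lay above the 3 of the other. Over all genes tested 18.1% lay higher and 14.9% lower at 35 DPA without overlap, so the absence of overlap alone is common in this step. A stricter count took genes whose lowest library of the higher stage was at least 2 times the highest library of the lower stage. This held for 1161 of the called genes, 288 higher and 873 lower. Over all genes tested 1932 met it (4.04%), 426 higher (0.891%) and 1506 lower (3.15%), so many that met it were not called. The calls were made on these same libraries, so the absence of overlap and the larger gap are no separate support for them.

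Leaving out 1 library at a time changed the number of calls. In the 6 fits with 1 library removed, 1888 of the 1889 genes could be tested each time. Since their groups do not overlap, their direction cannot turn in these fits. Of them 1632, 548 higher and 1084 lower, kept a change of at least 1 on the log2 scale and an unadjusted p under 0.05 in all 6 fits. The p condition removed no gene: the size condition alone also left 1632. The genes were selected on these same libraries, so this count is no separate support. The adjusted call was lost by every gene without replicate 2 of 30 DPA and without replicate 1 of 35 DPA: edgeR then called 0 genes, although 8038 and 9980 genes had an unadjusted p under 0.05. Without replicate 1 or 3 of 30 DPA edgeR called 73 and 711 genes, and without replicate 2 or 3 of 35 DPA 3193 and 272. Of the called genes, 55 (8 higher and 47 lower) were called in all 4 of these fits, and 362 in none. With all 6 libraries, DESeq2 called 4993 genes, among them 1820 of the 1889, and limma voom with library weights called 6344, among them 1763.

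**Figure D2:**
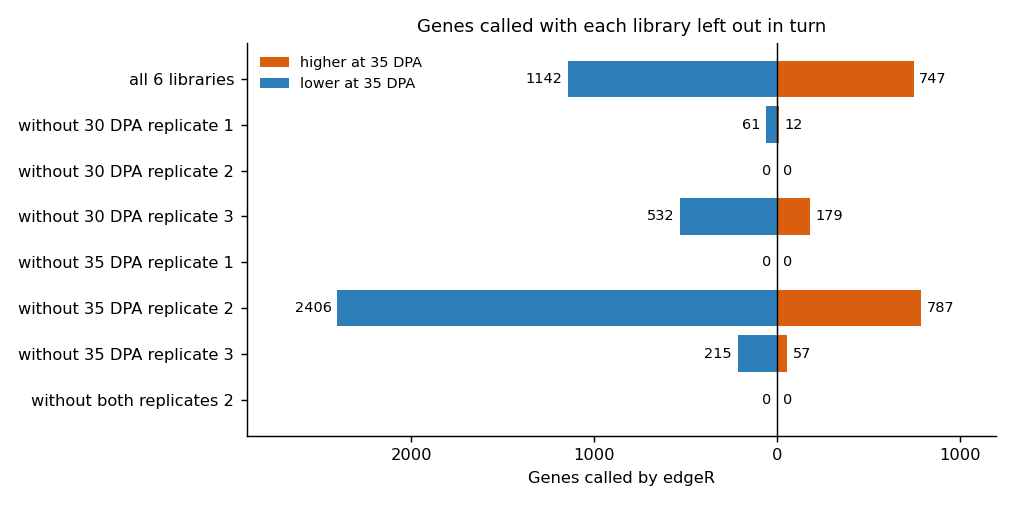
Bars give the number of genes that edgeR called higher (right) or lower (left) at 35 DPA with all 6 libraries, with each library left out in turn, and with both libraries numbered 2 left out. The total ran from 0 to 3193 calls over the 6 fits that leave out 1 library.

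Gene names were held for genes of 3 intervals on D03, D08 and D11 that the study tied to fiber strength. Of 1777 genes with a name or description, 1550 are in the count table and 1126 were tested. Of these, 15 were higher and 22 lower, beside 1.56% and 2.39% of all genes tested. The same shares stand beside the calls of each list below. The stricter count above was met by 25 of the 37. All 37 were also called by DESeq2 and by limma voom with library weights, which call far more genes in this step (4993 and 6344). The voom weights were 5.76 for replicate 2 of 30 DPA and 0.27 for replicate 2 of 35 DPA. These calls are therefore no independent support. None of the 37 could keep its call in all 6 fits with 1 library removed, since 2 of these fits called no gene at all. The most possible was 4 fits: 2 genes kept the call in 4, 3 in 3, 7 in 2, 20 in 1 and 5 in none. TUBB1 kept it in 3 fits, ODC, TUBB5, SUS2 and CCR1 in 2, and BAG6 in 1. The 5 that kept it in none were UNE12, WRKY39, MIER3, PNS1 and SNRNP25. Positions below are those of the HAU v2.0 assembly of Pima 3-79.

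**Figure D3:**
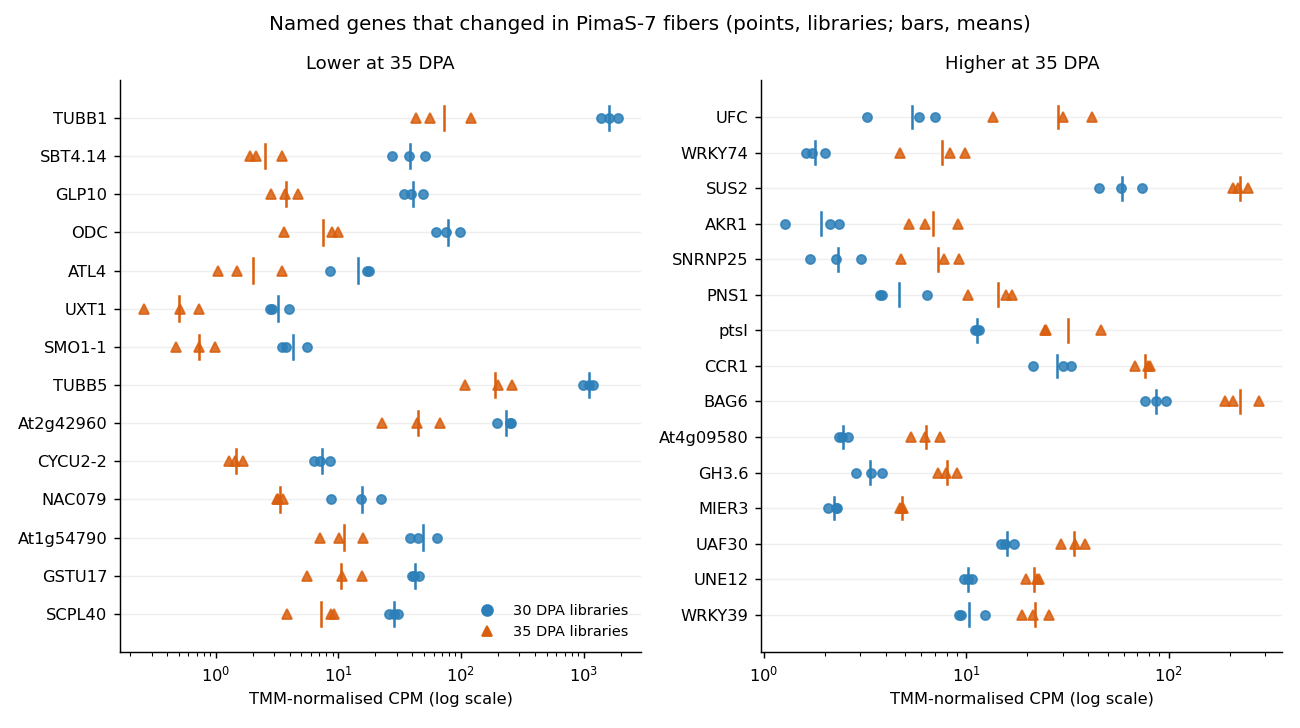
Points are the TMM-normalised CPM of single libraries on a log axis (circles for 30 DPA, triangles for 35 DPA) and vertical bars the mean of 3 libraries, for 14 of the 15 named genes with the largest fall and the 15 that rose. In each of these genes the circles and the triangles do not overlap.

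Among the named genes that were called, a microtubule gene had the steepest fall. TUBB1 (Gbar_D08G020540, D08 from 57694676 to 57697588), a beta tubulin, had 1891, 1608 and 1375 CPM at 30 DPA and 56.2, 121 and 43 CPM at 35 DPA. The lowest library of 30 DPA was 11.4 times the highest of 35 DPA. The gene fell 22.2-fold (log2 fold change -4.47 ± 0.48 SE, adjusted p = 0.017 by edgeR). TUBB5 (Gbar_D11G033670, D11 from 65956343 to 65959701), another beta tubulin, had 1193, 1113 and 990 CPM at 30 DPA and 201, 261 and 107 CPM at 35 DPA. It fell 5.79-fold (log2 fold change -2.53 ± 0.37 SE, adjusted p = 0.027 by edgeR). KIN14I (Gbar_D08G013740), a kinesin, which is a motor that moves along microtubules, had 63.1, 50.2 and 47.8 CPM and then 17.6, 19.8 and 6.67 CPM. It was called lower with a log2 fold change of -1.87 ± 0.40 SE and an adjusted p at the threshold (0.05 by edgeR). Reads can be shared among related tubulin genes and between homeologs, and how the authors assigned such reads is not given in the sources used here.

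The study also designed quantitative PCR primers for both tubulins, shown here because the results for microtubule genes turn on these transcripts. They were not aligned to any transcript here. All bases are in lower case since no part is marked.
TUBB1 forward: tcccggggttcacaacaata
TUBB1 reverse: ccttggtgctcattttgcct
TUBB5 forward: accgctatgttcaggagg
TUBB5 reverse: agcaaagtcgtgaaaggg

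The other 13 microtubule genes tested were not called, and they did not all lie on one side of 0. WDL2 (Gbar_D11G032910), of a family that binds and bundles microtubules in Arabidopsis, had 274, 216 and 206 CPM at 30 DPA and 64.8, 99.6 and 25 CPM at 35 DPA. The groups did not overlap, but the log2 fold change of -1.88 ± 0.47 SE missed the threshold (adjusted p = 0.07 by edgeR). TUBA3 (Gbar_D11G025770), an alpha tubulin, had 3.21, 6.11 and 5.7 CPM and then 1.41, 0.149 and 0.833 CPM (adjusted p = 0.083 by edgeR). A beta-9 tubulin gene (Gbar_D08G020390) had 267, 337 and 263 CPM and then 173, 185 and 106 CPM (adjusted p = 0.093 by edgeR). SP1L2 (Gbar_D08G013370), of a family that affects microtubule order in Arabidopsis, lay the other way, with 565, 477 and 663 CPM at 30 DPA and 769, 718 and 1058 CPM at 35 DPA. Its log2 fold change was 0.58 ± 0.26 SE (adjusted p = 0.23 by edgeR). The list as a whole had 16 genes tested, 3 lower and 0 higher, beside 2.39% and 1.56% of all genes. Its median log2 fold change was -0.37, beside 0.06 for all genes. In 7 of the 16 the libraries of 35 DPA all lay below those of 30 DPA (14.9% of all genes), and in 1 all lay above (18.1% of all genes).

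Of the actin cytoskeleton genes, 1 was called. The alpha subunit of the F-actin-capping protein (Gbar_D11G029020), which closes the growing end of a filament, had 87.7, 73.3 and 70.4 CPM at 30 DPA and 25.6, 35.5 and 14.1 CPM at 35 DPA. It fell 3.08-fold (log2 fold change -1.62 ± 0.33 SE, adjusted p = 0.046 by edgeR), the only call among 12 tested. ACT7, an actin, had 402, 362 and 337 CPM and then 227, 331 and 238 CPM (adjusted p = 0.24 by edgeR). MYOB1, which recruits myosin to vesicles in Arabidopsis, had 65, 55.4 and 63.8 CPM and then 41.1, 33 and 41.7 CPM (adjusted p = 0.066 by edgeR). The median of the list was -0.22. A gene of vesicle traffic outside the list also fell. RAB11A (Gbar_D11G022940), a small GTPase of recycling vesicles, had 49.9, 43.2 and 39.8 CPM and then 14.2, 21.3 and 15.5 CPM, a log2 fold change of -1.38 ± 0.21 SE (adjusted p = 0.028 by edgeR).

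Among 13 genes of cellulose and xylan synthesis tested, 1 rose and 1 fell. SUS2 (Gbar_D08G013720, D08 from 43360796 to 43366308), a sucrose synthase, had 45.1, 58 and 74.2 CPM at 30 DPA and 208, 246 and 220 CPM at 35 DPA. Every library of 35 DPA was at least 2.81 times every library of 30 DPA, and the gene rose 3.8-fold (log2 fold change 1.93 ± 0.23 SE, adjusted p = 0.019 by edgeR). UXT1 (Gbar_D08G022200), which carries UDP-xylose into the Golgi for xylan in Arabidopsis, was low at both stages. It had 2.75, 2.9 and 3.97 CPM and then 0.259, 0.508 and 0.729 CPM, and fell with a log2 fold change of -2.67 ± 0.47 SE (adjusted p = 0.035 by edgeR). The cellulose synthase CESA3, a subunit known from primary walls in Arabidopsis, was flat, with 177, 194 and 206 CPM against 193, 198 and 178 CPM (log2 fold change -0.02 ± 0.16 SE). CSI1, the protein that links cellulose synthase to microtubules, had 203, 180 and 160 CPM and then 91.8, 132 and 73.5 CPM and was not called (adjusted p = 0.093 by edgeR). The list median was -0.13.

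Of 6 genes tested among secondary wall regulators and lignin enzymes, CCR1 was the only one called. CCR1 (Gbar_D08G022580), a cinnamoyl-CoA reductase at the entry to the lignin branch, had 21.3, 30.2 and 33.1 CPM at 30 DPA and 67.9, 81.3 and 79.4 CPM at 35 DPA. It rose 2.7-fold (log2 fold change 1.43 ± 0.21 SE, adjusted p = 0.027 by edgeR). The regulators of the same list were not called. MYB86 had 125, 128 and 121 CPM and then 66.8, 73.6 and 18.9 CPM (adjusted p = 0.16 by edgeR), and KNAT7 had 98.3, 122 and 109 CPM and then 126, 83 and 128 CPM (adjusted p = 0.94 by edgeR). TBL43, of a family that acetylates wall polysaccharides, had 98.6, 85.7 and 75.5 CPM and then 65.8, 78.6 and 29.5 CPM, with overlapping groups. These 3 genes and TUBB1 served as markers of the secondary wall stage, and all 4 were above an FPKM of 0.5 at both stages. Their summed FPKM was 811 to 985 at 30 DPA and 105 to 157 at 35 DPA, mostly through TUBB1.

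Markers of other cells were read beside these values. The 9 photosynthesis genes in the table summed to 23.3 to 29.2 FPKM at 30 DPA and 14 to 20.8 at 35 DPA, with 4 of them above a mean FPKM of 0.5 at either stage and 1 and 2 at 0 in all 3 libraries. The 8 seed and embryo genes summed to 2.32 to 9.51 and 6.19 to 10 FPKM, with 3 at 0 at each stage. The 15 cell cycle and histone genes summed to 152 to 164 and 96.9 to 136 FPKM, with 1 and 2 at 0. Of these 3 lists only CYCU2-2 was called. The part of other cells in the changes was not tested.

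A protease and a germin-like protein followed TUBB1 among the named genes with the steepest falls. SBT4.14 (Gbar_D08G015060, D08 from 47380869 to 47384048), a subtilisin-like protease, had 50.6, 38 and 27.3 CPM at 30 DPA and 2.13, 3.5 and 1.9 CPM at 35 DPA. It fell 15.4-fold (log2 fold change -3.94 ± 0.35 SE, adjusted p = 0.013 by edgeR). GLP10 (Gbar_D08G014260, D08 from 44775825 to 44776891), a germin-like protein, had 34.1, 38.9 and 48.7 CPM and then 3.65, 4.66 and 2.84 CPM. It fell 10.9-fold (log2 fold change -3.45 ± 0.26 SE, adjusted p = 0.01 by edgeR) and was the only one of 18 germin-like genes listed, 4 of them in the count table, that passed the filter on low counts. SBT4.14 and GLP10 were the named genes that kept their call in all 4 fits with 1 library removed that called any gene. SCPL40 (Gbar_D08G016340), a serine carboxypeptidase-like protein, had 30.5, 28.6 and 26.1 CPM and then 8.69, 9.29 and 3.78 CPM, a log2 fold change of -1.97 ± 0.34 SE (adjusted p = 0.035 by edgeR). It and SBT4.14 were the calls among 13 tested genes of proteases, autophagy and cell death, whose median was -0.12. The autophagy genes ATG8F and ATG3 were not called, at 27.3, 18.9 and 19.4 against 14.7, 32.3 and 12.2 CPM and at 20.9, 21.7 and 20.1 against 22.2, 23.1 and 24.7 CPM. None of the 8 subunits of the 26S proteasome tested was called.

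Polyamine, sterol and redox enzymes were among the genes that fell. ODC (Gbar_D11G027900, D11 from 56314819 to 56316628), which makes the polyamine precursor putrescine, had 97.9, 76.2 and 62.5 CPM at 30 DPA and 3.6, 8.93 and 9.95 CPM at 35 DPA. It fell 10.5-fold (log2 fold change -3.39 ± 0.42 SE, adjusted p = 0.02 by edgeR). SMO1-1 (Gbar_D08G019680), a sterol methyl oxidase, had 5.6, 3.5 and 3.75 CPM and then 0.978, 0.478 and 0.729 CPM, a log2 fold change of -2.55 ± 0.40 SE (adjusted p = 0.03 by edgeR). The glutathione transferase GSTU17 (Gbar_D11G024050) had 45.6, 41.3 and 40.2 CPM and then 10.7, 15.5 and 5.55 CPM, a log2 fold change of -2.0 ± 0.36 SE (adjusted p = 0.036 by edgeR). Another one, GSTF8, fell too, by 1.83 on the log2 scale. They were the only calls among 14 tested peroxidase and glutathione genes, whose median was 0.05. The cytosolic ascorbate peroxidase APX2 (Gbar_D08G021920), a remover of hydrogen peroxide, was at 111, 90.3 and 83.5 CPM against 95.2, 123 and 95.2 CPM. PARB, another glutathione transferase, had 723, 396 and 100 CPM at 30 DPA and 322, 518 and 118 CPM at 35 DPA, a range within each stage wider than the difference of the stage means.

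Signalling genes that fell included kinases, a ubiquitin ligase and a cyclin. The probable receptor-like kinase At2g42960 (Gbar_D11G029850) had 250, 256 and 195 CPM at 30 DPA and 43.7, 67.8 and 22.9 CPM at 35 DPA, a log2 fold change of -2.38 ± 0.40 SE (adjusted p = 0.032 by edgeR). The E3 ubiquitin ligase ATL4 (Gbar_D08G016220) had 8.49, 17.2 and 17.7 CPM and then 3.48, 1.05 and 1.48 CPM, a log2 fold change of -2.85 ± 0.53 SE (adjusted p = 0.039 by edgeR). The cyclin CYCU2-2 (Gbar_D08G015880), had 7.04, 6.28 and 8.63 CPM and then 1.29, 1.43 and 1.67 CPM, both tight. Its log2 fold change was -2.32 ± 0.25 SE (adjusted p = 0.017 by edgeR). It kept its call in 3 of the 4 fits with 1 library removed that called any gene. The GDSL esterase At1g54790 (Gbar_D11G028530) had 44.5, 64.3 and 38.7 CPM and then 15.8, 10.2 and 7.08 CPM, a log2 fold change of -2.16 ± 0.35 SE (adjusted p = 0.031 by edgeR). The other lower named genes were the kinase At1g63430, KIN14I, GSTF8, the capping protein subunit, RAB11A, an endoglucanase and RANBP1C, with log2 fold changes from -1.29 to -1.90.

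NAC and WRKY factors regulate senescence and stress genes in many plants. They held 3 calls in 15 genes tested, 2 higher and 1 lower, beside 1.56% and 2.39% of all genes. WRKY74 (Gbar_D08G023800) had 1.73, 2 and 1.62 CPM at 30 DPA and 9.81, 4.72 and 8.33 CPM at 35 DPA, and rose with a log2 fold change of 2.10 ± 0.33 SE (adjusted p = 0.03 by edgeR). WRKY39 (Gbar_D08G021260) had 9.37, 9.25 and 12.4 CPM and then 25.6, 21.4 and 18.8 CPM, a log2 fold change of 1.09 ± 0.20 SE (adjusted p = 0.04 by edgeR). The next gene on D08, Gbar_D08G021250, carries the same name and may share reads with it, and had 5.64, 7.71 and 9.12 CPM and then 16.8, 12.4 and 21.1 CPM (adjusted p = 0.062 by edgeR). NAC079 (Gbar_D11G026410) went the other way, with 22.4, 15.4 and 8.71 CPM and then 3.25, 3.17 and 3.57 CPM, a log2 fold change of -2.22 ± 0.36 SE (adjusted p = 0.031 by edgeR). NAC071 and WRKY23 had changes of 1.97 and 1.90 without a call (adjusted p = 0.052 and 0.064 by edgeR), and in both the lowest library of 35 DPA was replicate 2, at 18.1 CPM beside 44.3 and 63.1, and at 40.5 CPM beside 98.1 and 160. The median of the list was 0.27. In 6 of its 15 genes the libraries of 35 DPA all lay above those of 30 DPA (18.1% of all genes), and in 1 all lay below (14.9% of all genes).

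The 15 named genes that rose had changes from 1.09 to 2.40 on the log2 scale, and the 22 that fell from -1.29 to -4.47. BAG6 (Gbar_D08G014860), a regulator of chaperones that acts in autophagy and stress in Arabidopsis, had 97, 86.4 and 76.4 CPM at 30 DPA and 209, 279 and 189 CPM at 35 DPA, a log2 fold change of 1.38 ± 0.22 SE (adjusted p = 0.03 by edgeR). It was the only call among 18 chaperones and heat shock proteins, whose median was 0.21. UFC (Gbar_D11G023530), named for its place upstream of a flowering gene in Arabidopsis, had 3.24, 5.87 and 7.04 CPM and then 30, 13.5 and 42 CPM, a log2 fold change of 2.40 ± 0.48 SE (adjusted p = 0.044 by edgeR). GH3.6 (Gbar_D08G020820), which joins auxin to amino acids, had 2.85, 3.84 and 3.37 CPM and then 7.25, 7.98 and 8.98 CPM, a log2 fold change of 1.27 ± 0.22 SE (adjusted p = 0.035 by edgeR). The aldo-keto reductase AKR1 (Gbar_D11G027720) had 1.27, 2.34 and 2.11 CPM and then 6.22, 5.2 and 9.11 CPM, a log2 fold change of 1.84 ± 0.35 SE (adjusted p = 0.041 by edgeR). MIER3 was the most even of these genes, with 2.29, 2.07 and 2.27 CPM against 4.72, 4.84 and 4.82 CPM, and its log2 fold change was 1.11 ± 0.23 SE (adjusted p = 0.046 by edgeR).

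The remaining named genes that rose were SNRNP25 (a splicing protein), PNS1, a gene annotated as ptsI, At4g09580, UAF30 and the transcription factor UNE12, with log2 fold changes of 1.64, 1.61, 1.5, 1.36, 1.10 and 1.09. SNRNP25 lies next to GSTF8 on D11, with 154 bases between the gene models, and rose with 1.69, 2.27 and 3.01 CPM against 4.78, 7.74 and 9.24 CPM. GSTF8 had 82.3, 67.7 and 63.4 CPM and then 26, 23.8 and 10.4 CPM. This pair of neighbours, noted after the values were seen, moved in opposite directions in all libraries.

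The other lists held no call. These were pectin and wall-loosening proteins (12 genes tested, median -0.48), cytosolic ribosomal proteins (14, median -0.19), ethylene synthesis and response (8, median 0.03), abscisic acid and protein phosphatase 2C (6, median 0.24), water channels and vacuolar pumps (9, median -0.28), cuticle and long-chain lipids (5, median -0.95), photosynthesis (5, median 0.24), seed and embryo proteins (3, median 0.17) and mitochondrial respiration (7, median 0.00). Sugar transport and sucrose cleavage (9, median 0.39) held 1 call, SUS2 again. Over all 21 lists 203 genes were tested, of which 5 were higher and 12 lower, beside 1.56% and 2.39% of all genes, and the median was -0.06. EIN3, the main regulator of the ethylene response, had 115, 119 and 120 CPM at 30 DPA and 160, 202 and 145 CPM at 35 DPA, apart in every library but below the fold threshold (log2 fold change 0.52 ± 0.18 SE, adjusted p = 0.14 by edgeR). PIP1-2, an aquaporin, had 267, 405 and 447 CPM and then 170, 238 and 170 CPM (log2 fold change -0.95 ± 0.27 SE, adjusted p = 0.088 by edgeR). RPS27B, a ribosomal protein, had 284, 226 and 221 CPM and then 117, 161 and 112 CPM (log2 fold change -0.91 ± 0.22 SE, adjusted p = 0.065 by edgeR).

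**Figure D4:**
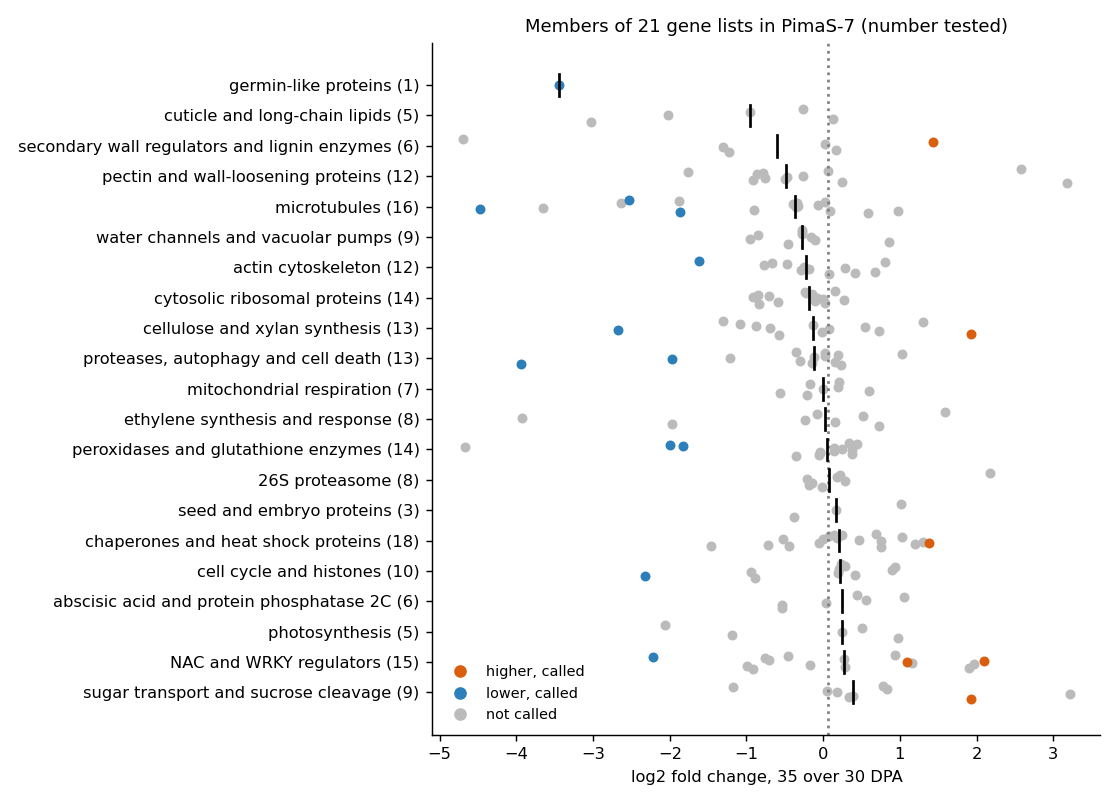
Each point is the log2 fold change of 1 list member, 35 over 30 DPA, colored when edgeR called it. Black bars are list medians, the dotted line is the median of all genes tested (0.06), and the number tested stands beside each name. Each list holds at most 3 called members, and the steepest fall among the called members is TUBB1 at -4.47.

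Some genes had reads at one stage and none at the other. Of all genes tested, 90 had no count at one of the stages. Of the called genes, 54 had no count in any library of 35 DPA and 25 none in any library of 30 DPA. Such genes passed the filter on low counts only through the stage with reads, so these counts are no separate support for a change. The genes below had the largest changes in their direction among unnamed called genes with a mean of at least 5 CPM in the higher stage. Gbar_A01G022360, which carries no name here, had 20, 41.9 and 64 CPM at 30 DPA and no read at 35 DPA, which makes it at least 1559-fold lower against a floor of 3 counts over the group. Gbar_A09G024040 had 2.11, 9.11 and 15.3 CPM and then none, at least 335-fold lower. In the other direction Gbar_A11G015860 had no read at 30 DPA and 5.73, 69.9 and 18.2 CPM at 35 DPA, at least 960-fold higher. Gossypium_barbadense_newGene_6761, a gene model added by the authors, had none and then 5.29, 1.61 and 10.4 CPM, at least 189-fold higher. The floors cover counting error only, and the libraries of the expressed stage differed several fold in each of these genes.

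Cotton is a tetraploid with an A and a D subgenome. On the A subgenome 363 of 21233 genes tested were higher (1.71%) and 567 lower (2.67%), and on the D subgenome 350 of 22032 were higher (1.59%) and 525 lower (2.38%). Gene models added by the authors had 29 higher (0.685%) and 47 lower (1.11%) of 4235.

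The study grouped genes into co-expression modules on these same libraries, and linked those it named red and black to PimaS-7 at 35 DPA. Their direction is therefore no independent result. The lists used here are longer than the modules as the study's text describes them and share 5 genes, so the counts are of these lists. Of 287 genes listed for the red module, 56 were called higher and 0 lower, and the libraries of 35 DPA all lay above those of 30 DPA in 229. The median log2 fold change was 0.80. Of 183 listed for the black module, 45 were higher and 0 lower, the groups did not overlap in 140, and the median was 0.86. Over all genes tested 1.56% were called higher and 2.39% lower, and 18.1% lay higher without overlap. No call was left in either module without replicate 1 or 2 of 30 DPA or without replicate 1 of 35 DPA.

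The same step in 5917 gave few calls. With 6 libraries of 5917, edgeR called 8 of 43975 genes (0.0182%), 6 higher and 2 lower, and none of the 1889 genes called in PimaS-7 was among them. Of the 1754 of these genes that were tested in both materials, 1569 had a change of the same sign in 5917. The share of same signs over all genes is not given here, so this count does not measure how alike the materials are. A gene that passed in one material and not in the other is not shown to differ, so the difference of the 2 steps was tested over the 12 libraries as an interaction. It was called for 13 of 49563 genes (0.0262%), 10 with the lower change in PimaS-7 and 3 with the higher one. Of the 37 named genes, 28 changed with the same sign in 5917, 27 had an interaction with an unadjusted p under 0.05, and 2, ODC and RAB11A, were called. Over all genes 4976 of 49563 had such a p, and the named genes were picked for a large change in PimaS-7, which enters the interaction.

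ODC was highest in PimaS-7 at 30 DPA, and its mean FPKM was at most 1.27 in PimaS-7 before that stage and at most 0.784 at any stage of 5917. In PimaS-7 its FPKM was 1.27 ± 1.14 (SD, n = 3) at 25 DPA, 34.9 ± 6.34 at 30 DPA and 3.62 ± 1.7 at 35 DPA. In 5917 it was 0.0381 ± 0.0131 at 30 DPA and 0.434 ± 0.22 at 35 DPA, from 11 and 90 counts over 3 libraries. The interaction was -6.42 ± 0.65 SE on the log2 scale (adjusted p = 0.0045 by edgeR). RAB11A was at 21.3, 20 and 18.7 FPKM in PimaS-7 at 30 DPA and 7.36, 10.3 and 8.26 at 35 DPA. In 5917 it was at 4.7, 7.27 and 7.44 and then 17.9, 25.9 and 24 FPKM, the other way in every library. The interaction was -3.18 ± 0.33 SE (adjusted p = 0.0045 by edgeR), and both genes kept it in all 12 fits with 1 library removed. Taken alone, the rise in 5917 was not called for ODC (adjusted p = 0.21 by edgeR) or for RAB11A (adjusted p = 0.088 by edgeR).

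For the tubulins the difference between materials was not called. TUBB1 had an FPKM of 759 ± 88.7 (SD, n = 3) and 36.1 ± 16.5 in PimaS-7 at 30 and 35 DPA, and 1562 ± 393 and 639 ± 217 in 5917, where the log2 fold change was -1.44 ± 0.40 SE. The interaction was -3.07 ± 0.65 SE (adjusted p = 0.15 by edgeR). TUBB5 had 467 ± 27.9 and 85.5 ± 29.4 in PimaS-7 and 888 ± 212 and 514 ± 138 in 5917, with an interaction of -1.64 ± 0.56 SE (adjusted p = 0.35 by edgeR). In PimaS-7 both tubulins stood highest at 25 DPA, TUBB1 at 1258 ± 422 and TUBB5 at 777 ± 174 FPKM.

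SUS2 and CCR1 were at their highest of all 8 stages at 35 DPA in PimaS-7. SUS2 had 16.4 ± 4.44 and 67.3 ± 3.57 FPKM (SD, n = 3) at 30 and 35 DPA in PimaS-7 and 7.76 ± 2.76 and 11.9 ± 2.82 in 5917, with an interaction of 1.30 ± 0.34 SE (adjusted p = 0.24 by edgeR). CCR1 had 13.3 ± 3.69 and 38.5 ± 4.34 FPKM in PimaS-7 and 9.88 ± 2.4 and 9.71 ± 0.977 in 5917, with an interaction of 1.46 ± 0.29 SE (adjusted p = 0.13 by edgeR). In ovules at 0 DPA SUS2 had been at 15.6 ± 0.989 FPKM in PimaS-7 and CCR1 at 17.5 ± 1.25.

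**Figure D5:**
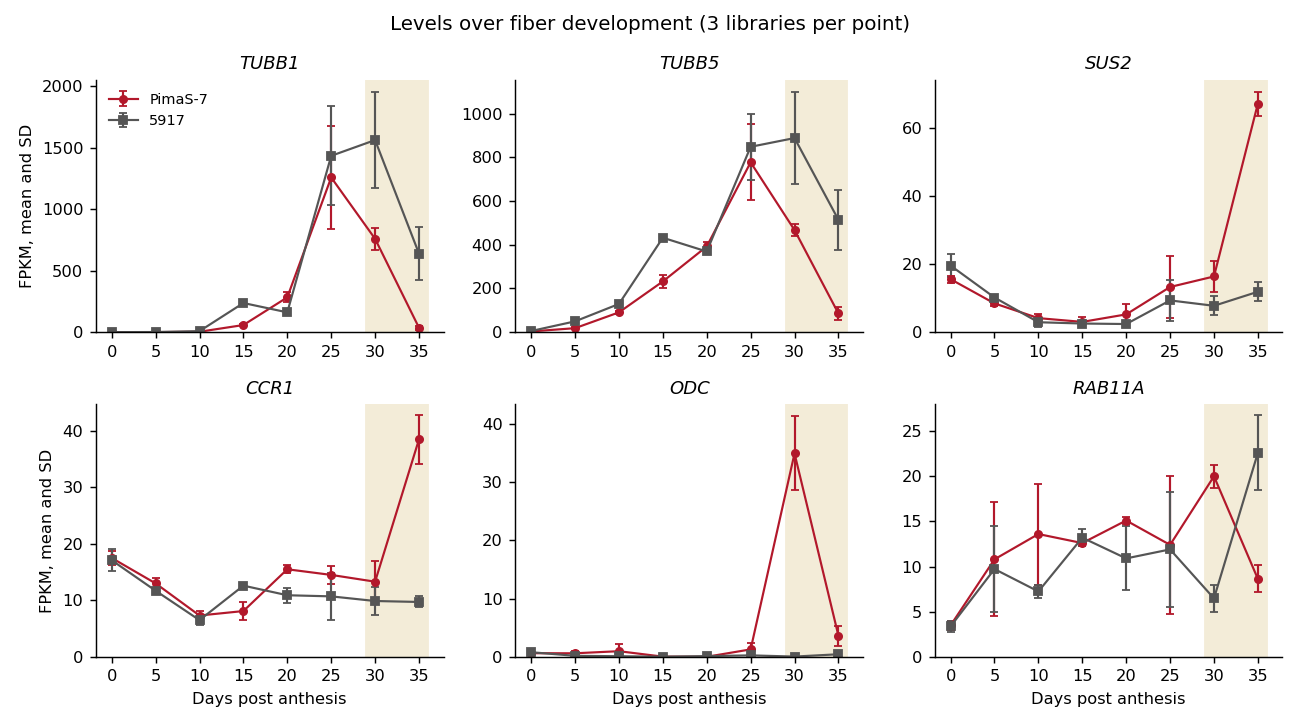
Points are the mean FPKM of 3 libraries and bars their SD, from 0 DPA (ovules) to 35 DPA, for PimaS-7 (circles) and 5917 (squares), with the step from 30 to 35 DPA shaded. From 30 to 35 DPA the mean of TUBB1 goes from 759 to 36.1 FPKM in PimaS-7 and from 1562 to 639 in 5917, SUS2 and CCR1 rise in PimaS-7, ODC peaks at 34.9 in PimaS-7 at 30 DPA, and RAB11A moves in opposite directions in the 2 materials.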

How the data were processed

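RNA was taken from ovules at 0 DPA and from fibers later, and libraries were read on an Illumina HiSeq2500. The authors aligned reads with HISAT2 (version not given in the sources used here) to the HAU v2.0 assembly of Pima 3-79 and assembled transcripts with StringTie. The deposited files hold whole-number counts for 69337 genes in 48 libraries, not normalized, and the authors' FPKM per gene and library. How reads of similar genes were assigned is not given in the sources used here.

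The counts were tested with edgeR 4.0.16 (R 4.3.3), with TMM scaling, filterByExpr defaults (minimum count 10), glmQLFit and glmQLFTest, on the 6 PimaS-7 libraries. Calls needed a Benjamini-Hochberg adjusted p of at most 0.05 and a log2 change of at least 1 in size. The 5917 step and the interaction used the same test. FPKM served for profiles, correlations and marker sums. The scripts were tested on simulated data with a dispersion below that of the 6 libraries. This does not show how they perform at the spread seen here. Alternatives were DESeq2 1.42.0, its size factors in edgeR, no filter, a replicate block, all 48 libraries in 1 fit, each library left out, both libraries numbered 2 left out, limma 3.58.1 on log2(FPKM + 1) and log2(FPKM + 0.1), and limma voom with library weights. On the log2(FPKM + pseudocount) scale changes of low genes are understated. Depth ran from 30675630 to 36764131 counts in the 6 libraries.

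Genes were described by name when they carried a name in the study's annotation, were called, had groups that did not overlap and reached a mean of 1 CPM. Also described were the study's candidate genes, called list members and the most abundant members of each list. Unnamed called genes were picked by the largest change in each direction among those reaching a mean of 5 CPM. 1 of the named genes that fell is not reported here. The 21 lists were made from the names in the annotation. The comparison, lists and tests were chosen with earlier results of these data known. A RefSeq gene table of another assembly was not used, and genome sequence was not used here.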

Additional observations from a re-analysis of the deposited data

Results flagged for a closer look

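The change from 30 to 35 DPA differed between PimaS-7 and 5917 in 13 genes by edgeR's interaction test over 12 libraries, given here as the PimaS-7 minus the 5917 log2 change with its adjusted p. The difference was negative for ODC (Gbar_D11G027900) at -6.42 (0.0045), RAB11A (Gbar_D11G022940) at -3.18 (0.0045) and Gbar_A07G016810 at -4.72 (0.0012). It was negative too for Gbar_D02G002360 at -3.47 (0.0045) and Gbar_A02G001930 at -2.34 (0.0045). Also negative were Gossypium_barbadense_newGene_13127 at -6.77 (0.011), Gbar_D05G016720 at -3.63 (0.029), Gbar_D03G010740 at -2.85 (0.044) and Gbar_D05G006080 at -3.65 (0.048). Gbar_A12G027590 had -9.38 (0.005), with no count in 5917 at 30 DPA. Positive were Gbar_A05G015960 at 2.41 (0.0045), Gbar_D05G016390 at 2.25 (0.0045) and Gbar_A08G021190 at 8.62 (0.011), the last with no count in 5917 at 35 DPA. The fitted values of the genes without counts depend on the prior count and are no bound. Gbar_A07G016810, Gbar_D05G006080, Gbar_A12G027590 and Gbar_A08G021190 were not called in PimaS-7, with log2 fold changes of -0.51, -0.72, 0.05 and 0.79. In 5917 these genes changed by 4.14, 2.89, 9.07 and -7.58, of which only Gbar_A07G016810 was called (adjusted p = 0.0037 by edgeR).

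Gbar_D02G002360 had an FPKM of 17.4, 12.5 and 11.4 in PimaS-7 at 30 DPA and 1.31, 1.45 and 1.35 at 35 DPA. Gbar_A05G015960 had 3.91, 3.43 and 3.64 FPKM and then 18.3, 13.4 and 20.8 FPKM. In both genes the stages did not overlap. Of the 13 genes, 10 kept the interaction in all 12 fits with 1 library removed. The exceptions were Gbar_D05G006080, Gbar_D05G016720 and Gbar_D03G010740, which kept it in 4 fits each.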

How the results depend on the processing

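The PimaS-7 step had 1889 calls. In all, DESeq2 size factors gave 1538 calls, no filter 1224, limma on log2(FPKM + 1) 2370, on log2(FPKM + 0.1) 3081, DESeq2 4993, all 48 libraries in 1 fit 5560 and voom with library weights 6344. Higher genes were 39.5% of the calls, 24.8% with all 48 libraries and 48.7% with limma on log2(FPKM + 0.1). Leaving out 1 library gave 0 to 3193 calls, and leaving out both libraries numbered 2 gave 0, with 9297 genes at an unadjusted p under 0.05. With the replicate block edgeR called 0 genes (10197 at an unadjusted p under 0.05) in PimaS-7, 3 in 5917, 10 interactions, 0 list members and 0 module genes. Whether the numbers pair the libraries is not stated. Deviations from the stage mean of same-numbered libraries correlated with r of -0.155, -0.094 and 0.167. Replicate 1 of 30 DPA correlated best with replicate 2 of 35 DPA (0.267). Deviations from a mean of 3 libraries constrain one another, so these values cannot tell whether libraries were paired.

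The 8 calls in 5917 became 828 with DESeq2, 28 without the filter and 771 with all 48 libraries, and 5 to 27 with 1 library left out. The 13 interactions became 841, 21 and 1048 under the same settings and 10 to 100 with 1 library left out, the most without replicate 2 of PimaS-7 at 35 DPA. Genes whose groups did not overlap numbered 17610 to 24571 with 1 library left out. The 17 list members called became 41 with DESeq2, 38 with all 48 libraries and 38 with voom weights, 0 to 34 with 1 library left out and 0 without both libraries numbered 2. The 98 module genes called became 59 without the filter, 162 with limma at both pseudocounts, 0 to 86 with 1 library left out and 0 without both libraries numbered 2. None of the 41 called genes examined one by one reversed under the 16 alternatives. Their groups do not overlap, so their direction could not turn when a library was left out. Of the 656 checks of these genes by setting, 353 kept the call and 303 were weaker. Among uncalled genes near 0 the sign could change with a library left out, as for PARB (-0.35, up to 0.36) and RAP2-3 (-0.24, up to 0.2). List medians near 0 changed sign with DESeq2 size factors for ethylene (-0.04), peroxidases (-0.02) and mitochondrial respiration (-0.06). The 3 libraries per stage and their spread limit which of these calls can be told from replicate error.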
